A study of Mus musculus with 6 samples.

Results

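The regions described here lay within the bodies of protein-coding genes, were called as open chromatin in every wild-type sample and were called in no Utx-knockout sample. The assay was ATAC-seq, which cuts and tags open DNA with a transposase, and each sample was represented by its list of peaks. Overlapping peaks of the 6 lists (by 1 bp or more) were joined into 75961 regions. A region was kept when all 3 wild-type and 0 of 3 knockout samples had a peak there and when it overlapped the span of a protein-coding gene (RefSeq, mm10). It was left out when it touched a window of 1 kb on either side of any protein-coding gene end. These criteria took 4638 regions, which is 6.11% of all regions and 57.7% of the 8042 regions lost anywhere. The other lost regions were 547 at gene ends and 2857 between genes. Among all 34959 regions inside genes 13.3% were lost, and among all 75961 regions 10.6% were lost. Gained regions inside genes numbered 1718 (4.91% of those inside), with peaks in every knockout and no wild-type sample. Of the 19680 regions inside genes with a peak in all 3 wild-type samples, 23.6% were lost. The members were chosen by the presence or absence of peaks in the same 6 lists, so their loss is a description and was not tested.

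The samples were lineage-depleted bone marrow progenitors of C57BL/6 mice, 3 labelled UTX_WT and 3 labelled UTX_KO. The labels do not give the knockout allele, a Cre driver, the age of the mice, or whether a sample was 1 animal or a pool. Wild-type lists held 57405, 57917 and 57622 peaks and knockout lists 45260, 50249 and 44576. Read depth is unknown, because the lists carry coordinates without counts or scores. All 8 progenitor markers (Kit, Cd34, Flt3, Meis1, Hoxa9, Gata2, Runx1 and Spi1) had peaks in every sample. Summed over each marker list, progenitor genes had 67 to 74 peaks in wild type and 54 to 60 in knockout. The 7 erythroid markers had 15 to 19 and 3 to 4, and the 4 megakaryocyte markers 7 and 3. Gata1, Slc4a1, Alas2, Hbb-bs, Gp9 and Pf4 had no peak in any knockout sample. The 4 B lymphoid markers had 5 to 11 peaks in wild type and 24 in each knockout sample, and the 5 granulocyte and monocyte markers 13 to 15 and 8 to 11. In such bulk samples fewer cells of a type and less open chromatin per cell cannot be told apart, and the part of these marker shifts in the losses below was not tested. Kdm6a itself had 0 lost regions and 1 gained region inside it. The deleted part of the gene is not given in the labels, so its peaks do not check the genotype.

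UTX, the product of the X-linked gene Kdm6a, removes the repressive H3K27 methyl mark from histones and is a subunit of the COMPASS-like complexes that act at enhancers. Open sites within introns are often enhancers, where transcription factors bind and recruit such complexes. In blood, GATA1 works at such sites together with its cofactor FOG1 (Zfpm1) and the partners TAL1, LMO2 and LDB1 to switch on genes of red cells and platelets, while ETS factors such as PU.1 act in stem, myeloid and lymphoid cells. According to its title, the study concerned ETS and GATA programmes.

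A few lost regions held an annotated transcript start within the gene, and there the DNA could be read from the RefSeq promoter table (GRCm38.p6, the assembly of mm10). The 250 bases before 7 such starts are shown, each lying wholly within a lost region, because they show the GATA hexamers counted below. Capitals mark AGATAA or TGATAA on either strand, which read TTATCT or TTATCA on the opposite strand.
Uros (chr7:133702501-133702750, minus strand): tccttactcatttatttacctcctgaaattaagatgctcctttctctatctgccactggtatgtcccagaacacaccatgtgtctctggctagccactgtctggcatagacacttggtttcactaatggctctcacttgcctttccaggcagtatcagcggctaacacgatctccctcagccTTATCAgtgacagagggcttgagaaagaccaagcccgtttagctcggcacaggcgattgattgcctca
Sox6 (chr7:115846141-115846390, minus strand): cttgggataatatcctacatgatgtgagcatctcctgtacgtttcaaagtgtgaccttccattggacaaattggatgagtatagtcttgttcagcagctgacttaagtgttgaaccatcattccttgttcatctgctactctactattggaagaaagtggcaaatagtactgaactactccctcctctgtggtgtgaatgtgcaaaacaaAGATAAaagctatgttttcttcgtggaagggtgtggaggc
Il1rl1 (chr1:40429320-40429569, plus strand): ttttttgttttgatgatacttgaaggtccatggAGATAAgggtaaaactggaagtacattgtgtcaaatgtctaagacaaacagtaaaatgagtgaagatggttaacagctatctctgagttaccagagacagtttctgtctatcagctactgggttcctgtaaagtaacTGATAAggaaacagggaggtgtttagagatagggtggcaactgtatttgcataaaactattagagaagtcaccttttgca
Gid8 (chr2:180712296-180712545, plus strand): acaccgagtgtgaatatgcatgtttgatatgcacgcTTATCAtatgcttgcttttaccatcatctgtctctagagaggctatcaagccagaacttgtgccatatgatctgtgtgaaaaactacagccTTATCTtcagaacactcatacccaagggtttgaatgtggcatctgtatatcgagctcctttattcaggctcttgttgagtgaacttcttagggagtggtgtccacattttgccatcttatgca
Rusf1 (chr7:128289005-128289254, minus strand): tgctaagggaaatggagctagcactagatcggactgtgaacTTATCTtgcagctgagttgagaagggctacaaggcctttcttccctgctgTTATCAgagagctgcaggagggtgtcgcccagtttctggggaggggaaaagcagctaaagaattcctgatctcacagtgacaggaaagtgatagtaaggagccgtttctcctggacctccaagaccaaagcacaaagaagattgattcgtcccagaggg
Gata1 (chrX:7967911-7968160, minus strand): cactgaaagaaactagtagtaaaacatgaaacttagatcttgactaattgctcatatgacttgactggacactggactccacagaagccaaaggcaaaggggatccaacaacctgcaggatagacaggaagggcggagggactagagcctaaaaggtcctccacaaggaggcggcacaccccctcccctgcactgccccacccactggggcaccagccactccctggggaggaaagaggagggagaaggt
Mllt3 (chr4:87806324-87806573, minus strand): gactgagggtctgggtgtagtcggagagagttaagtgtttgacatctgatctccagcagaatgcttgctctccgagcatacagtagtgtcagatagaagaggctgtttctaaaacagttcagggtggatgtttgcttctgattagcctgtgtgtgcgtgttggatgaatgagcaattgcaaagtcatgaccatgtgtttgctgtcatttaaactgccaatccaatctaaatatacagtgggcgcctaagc

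Uros encodes uroporphyrinogen III synthase of haem synthesis, and the lost region over its internal start was 749, 626 and 796 bp wide in wild-type samples 1, 2 and 3. Sox6 encodes a transcription factor of red cell maturation, and its region over an internal start was 435, 392 and 456 bp wide. Il1rl1 encodes the interleukin-33 receptor ST2 of mast cells, with a region of 608, 1175 and 1095 bp. These 3 regions were present at every wild-type sample and absent from every knockout list, and widths varied most at Il1rl1. The region at Gid8, a subunit of the GID ubiquitin ligase, was 829, 779 and 946 bp wide, and that at Rusf1 651, 515 and 795 bp. Gata1 and Mllt3 are shown as examples without AGATAA or TGATAA in these bases. For GATA only these letters were searched, and the Mllt3 bases hold the related AGATAG, which was not counted. The regions were 656, 653 and 832 bp wide at Gata1, the master regulator of red cells and platelets, and 889, 1283 and 1338 bp at Mllt3, a cofactor active in stem cells.

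The RefSeq table covered the chromosomes of 4469 lost regions inside genes. An annotated start lay in 71 of them (1.59%), in 45 of them the start of a protein-coding gene. For comparison, starts lay in 9.95% of the regions inside genes found in all 6 samples, in 1.39% of gained ones and in 4.14% of all regions inside genes. Lost regions inside genes were thus rarely at annotated starts. In windows of 300 bases (250 before and 50 after each start), a GATA hexamer was present in 35 of the 77 windows whose start lay in a lost region (45.5%). Some of these windows overlap one another, and some reach beyond the region. It was present in 137 of 1374 windows in regions of all 6 samples (9.97%), 2 of 27 in gained regions (7.41%) and 42 of 232 in other combinations (18.1%). Over all 32851 windows of the table the share was 18.6%. Counted once per region and only within the region itself, the hexamer stood in 31 of 71 lost regions (43.7%), 119 of 1096 of all 6 samples (10.9%), 2 of 23 gained (8.7%) and 32 of 209 of other combinations (15.3%), a count chosen after the data were seen. Base composition moved with this difference, since median GC content was 51% in windows of lost regions, 60% in those of all 6 samples and 52.7% over the table. Within 45 to 50% GC the hexamer stood in 12 of 18 windows of lost regions (66.7%), 20.6% of those of all 6 samples and 26.5% over the table. Within 50 to 55% GC these values were 11 of 27 (40.7%), 16.7% and 17.6%, and within 55 to 60% GC they were 3 of 13 (23.1%), 9.2% and 10.4%. Above 60% GC it stood in 0 of 5 windows of lost regions, and below 45% in 9 of 14. The share was therefore higher in windows of lost regions in every GC class up to 60%, over few windows and without a test. These starts are a small and particular subset and do not stand for all lost regions.

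Other letters were searched on both strands in the same windows. TGACTCA or TGAGTCA, read by AP-1 and the platelet and red cell factor NF-E2, was present in 11.7% of windows at starts in lost regions, 4.66% of those of all 6 samples, 12.1% of those of other combinations and 5.2% over the table. TGTGGT, read by RUNX factors, was present in the same sets in 24.7%, 13.8%, 22.4% and 16.8%. CCACACCC, read by KLF factors, was present in 6.49%, 2.98%, 4.31% and 3.56%. CAGCTG or CAGATG, the E-box read by TAL1 and its partners, was present in 39%, 27.9%, 35.8% and 30.6%, and in 48.1% of the 27 windows of gained regions. The AP-1, RUNX and E-box shares at lost regions were thus close to those of other combinations, and the E-box share was below that of gained regions. The ETS letters CCGGAAGT or GAGGAAGT were in 3 of 77 windows (3.9%), below the 6.93% over the table and the 9.61% in regions of all 6 samples. In other combinations their share was 5.17%, and in gained regions they were in 0 of 27 windows. Only the GATA hexamers were compared by GC class, so the part of base composition in the ETS shares was not tested. TTGCNNCAA, read by C/EBP factors, was in 0 of the 77 windows, against 2.08% over the table, and the letters searched for CTCF were in 0 against 0.651%. An absence says only that these letters are not in those windows. A match is a description of the letters, not evidence that a factor binds there.

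Peaks at the lost regions were narrower than those at regions inside genes found in all 6 samples. At lost regions the median width was 333 bp in wild-type sample 1, 358 bp in sample 2 and 415 bp in sample 3. Single peaks there ran from 199 to 3631 bp. Over the whole lists of wild-type samples 1, 2 and 3 the median peak width was 409, 403 and 411 bp, so sample 3 showed no such gap. Across the 3 wild-type samples the coefficient of variation of a region's width had a median of 16.2%. Averaged over wild type, the median width was 365 bp (quartiles 290 and 504 bp), against 485 bp for regions inside genes found in all 6 samples. Width and loss moved together. Below 300 bp 36.4% of regions shared by the 3 wild-type samples were lost, and the share was 25.2% at 300 to 400 bp, 20.9% at 500 to 600 bp, 14.6% at 800 to 1000 bp and 4.36% at 1500 bp or more. The share with a peak in all 3 knockout samples went from 25.6% to 92.8% over the same classes. The lists cannot tell a closed site from one that fell just under the calling threshold.

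**Figure D1:**
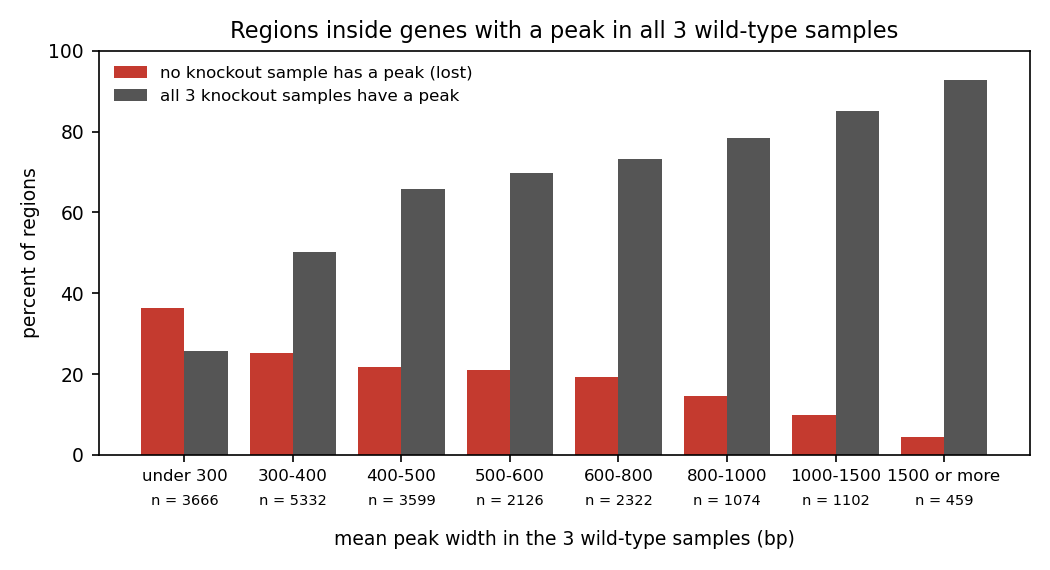
Percent of regions inside genes with a peak in all 3 wild-type samples (y axis) that no knockout sample (red) or every knockout sample (grey) also had, by mean wild-type peak width in bp (x axis). Red bars go down from 36.4% in the narrowest class to 4.36% in the widest, and the number of regions in each class stands below the axis.

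Near misses of the criteria were common. Inside genes, 1663 regions had peaks in 3 wild-type samples and 1 knockout sample and 2003 in 3 and 2, with median wild-type widths of 311 and 333 bp. A further 2976 had peaks in 2 wild-type samples and no knockout sample, and 4623 in 1 and none. At the edge of the position criterion, 113 lost regions lay 500 to 1000 bp from a gene end within a gene span and 161 lay over 1000 and up to 1500 bp from it, with median widths of 372 and 364 bp. By the criteria no knockout peak touched a lost region, so a gap was fixed in advance. Gaps from other regions were not measured for comparison. The nearest knockout peak was a median of 6.66 kb away (quartiles 2.37 and 16.7 kb), and it was less than 1 kb away for 470 regions (10.1%). When every list was limited to its 44576 widest peaks, the length of the shortest list, 2752 lost regions inside genes were counted and 9.55% of all regions inside genes were lost.

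Genes for transcription factors of the red cell lineage had a higher share of their regions lost than all genes had. In 26 GATA factor and partner genes, 50 of 210 regions inside the genes were lost (23.8%, against 13.3% inside all protein-coding genes), in 15 of the 24 genes that had any region inside. For all protein-coding genes, 2867 of 9311 (30.8%) with a region inside had at least 1 lost. Per gene the median share lost was 21.1% in this list and 0% over all genes, where most genes had no lost region at all. The 24 list genes held 210 regions and the 9311 genes 34959, so list genes had more regions each. Both per-gene comparisons depend on the number of regions in a gene, which was not matched. Regions of this list that all 3 wild-type samples had were wide, with a median of 584 bp against 420 bp over all genes. Zfpm1, encoding FOG1, had 8 lost of 20 regions, with peaks at 13, 15 and 18 of the 20 in wild-type samples 1, 2 and 3 and at 3, 5 and 5 in knockout samples 1, 2 and 3. The 8 lost regions are part of these counts, so the gap between genotypes follows in part from the criteria. A region in it, on chromosome 8 at 122320963 to 122324714, was the widest of all 4638, with 2928, 2031 and 3631 bp in the 3 wild-type samples. The same gene held the longest unbroken series of lost regions, 7 of them over 13.5 kb with no region of another kind between.

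**Figure D2:**
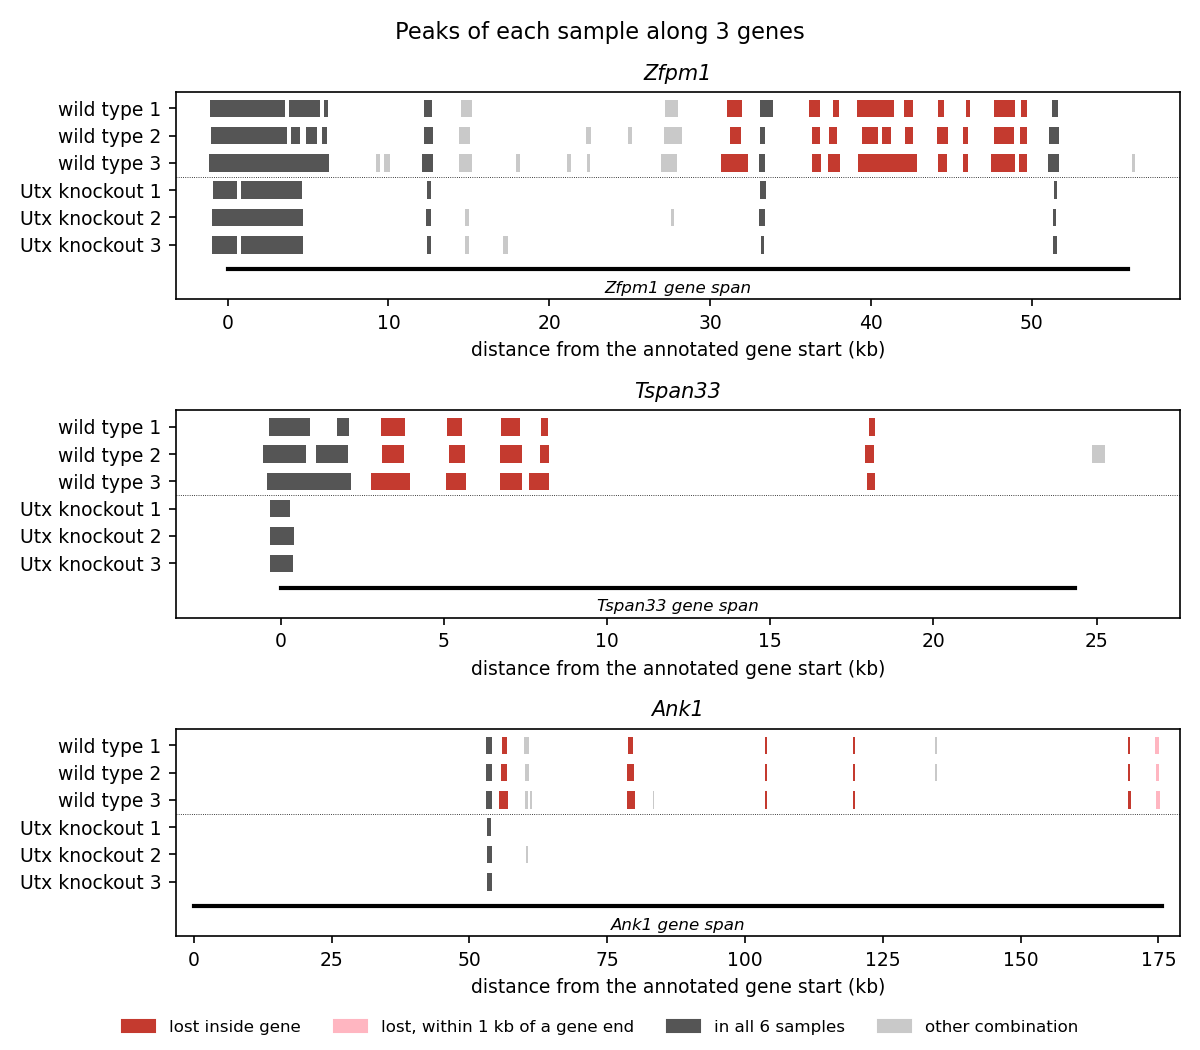
Peaks of the 6 samples (rows) along Zfpm1, Tspan33 and Ank1, in kb from the annotated gene start (x axis). Red marks lost regions inside the gene, pale red a lost region within 1 kb of a gene end, dark grey regions of all 6 samples and light grey other combinations. Zfpm1 shows 8 red regions, and Tspan33 and Ank1 5 each, with no peak at them in the 3 knockout rows.

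Sox6 had 7 lost of 26 regions, with peaks at 16, 19 and 22 in wild type and at 7, 7 and 5 in knockout. Its widest lost region (chromosome 7, 115830627 to 115831909) measured 1008, 1161 and 1283 bp in wild type. Losses of 5 regions each were found at Bcl11a, Foxo3, Cbfa2t3 and Ikzf1. Bcl11a, the repressor of fetal globin genes, had 5 lost of 28, and its regions at 24129381 to 24130632 and 24135560 to 24136800 on chromosome 11 measured 1180, 1129 and 1139 bp and 1181, 1045 and 1214 bp. Both lie in the gene whose intronic enhancer is known to be used in red cells. Foxo3, a factor of late red cell maturation, had 5 lost of 12, Cbfa2t3 (the corepressor ETO2) 5 of 14, and the lymphoid and erythroid factor Ikzf1 5 of 22. In Ikzf1 11 of 22 regions had peaks in all 6 samples, so loss was partial in that gene.

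At Gata1 3 of 4 regions inside the gene were lost. Wild-type samples had peaks at 3, 4 and 3 of the 4, and the 3 knockout samples at 0. The 3 lost regions, on chromosome X, were 510, 524 and 528 bp (7963876 to 7964439), 656, 653 and 832 bp (7967854 to 7968685) and 516, 536 and 605 bp (7971131 to 7971774) wide in the wild-type samples. Lmo2, an adaptor of the GATA1 complex, had 3 lost of 8, the widest 1102, 1256 and 1020 bp (chromosome 2, 103959134 to 103960389). Gfi1b, a repressor needed for red cells and platelets, had 1 lost of 2, at 1087, 1389 and 1174 bp. Tal1, Ldb1, Nfe2 and Tcf3 had 1 lost region each. Gata2, Gata3, Klf3, Zbtb7a, Myb, Mafk, E2f2, Hmgb2 and Mxi1 had regions inside and none lost. The list therefore held genes on both sides.

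Genes for haem synthesis and iron uptake had 22 lost of 52 regions (42.3%), in 13 of 19 genes with a region inside, and 0 gained. Alas2, the first and rate-limiting enzyme of haem synthesis in red cells, lost both of its 2 regions on chromosome X, at 150549538 to 150550249 (561, 569 and 712 bp in wild type) and 150564612 to 150565130 (395, 429 and 519 bp). Snx3, which recycles the transferrin receptor, lost 3 of 4, and wild-type samples had 3, 3 and 4 of these regions against 0 in each knockout sample. Slc11a2, the iron importer DMT1, lost 3 of 5, the widest at 1114, 854 and 1255 bp (chromosome 15, 100419429 to 100420683). Lost regions were thus spread over the pathway from iron entry to haem assembly. Uros lost 2 of 4, Fech, which inserts iron into the ring, 2 of 4, the mitochondrial transporter Abcb10 2 of 3, and Steap3, the ferrireductase, 2 of 8. Cpox, Slc25a37, Slc25a38, Slc48a1 and Tfrc lost 1 each. Alad and Urod each had 1 region inside, found in all 3 wild-type samples and in knockout sample 2, and those are not counted as lost.

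Genes of the red cell membrane and its skeleton had 29 lost of 99 regions (29.3%), in 16 of 22 genes with a region inside. Ank1, which encodes ankyrin and anchors the skeleton to the membrane, lost 5 of 10, with peaks at 8, 8 and 9 regions in wild type and 1, 2 and 1 in knockout. The widest, on chromosome 8 at 23030220 to 23031834, measured 985, 1197 and 1615 bp. Gypc (glycophorin C) lost 3 of 5, Dmtn (dematin) 3 of 7 and Sptb (beta spectrin) 3 of 8. Rhag, Rhd, Add1, Add2, Piezo1, Tmod1, Xk, Ermap, Epb41l1 and Epb41l3 also had lost regions. Epb41, Tmod3, Slc2a1, Slc14a1, Aqp1 and Cd59a had regions inside and none lost. The sites were therefore found across the spectrin, ankyrin and Rh parts of the membrane, with exceptions such as protein 4.1 (Epb41).

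Genes for autophagy and clearance in maturing red cells had 25 lost of 62 regions (40.3%), in 10 of 12 genes with a region inside. Foxo3, counted above too, gave 5 of these. Nprl3 lost 4 of 6 and is the gene whose introns carry the enhancers of the alpha-globin genes. Its lost regions, on chromosome 11, measured 692, 606 and 663 bp (32245350 to 32246066), 575, 597 and 894 bp (32250586 to 32251479), 540, 514 and 619 bp (32256024 to 32256642) and 333, 358 and 429 bp (32265024 to 32265452). Ube2o, the ubiquitin-conjugating enzyme that clears ribosomes from reticulocytes, lost all 4 of the 4 regions that the wild-type samples shared and gained 1. Tmcc2 lost 3 of 10, Optn 2 of 7, and Xpo7 and Cul4a 2 of 3 each. Fbxo7 and Ubac1 lost 1 of 3 each. Ulk1, with 5 regions inside, and Trim58, with 1, had none lost. Bnip3l, the receptor for mitochondrial removal in red cells, lost 1 of 2, at 698, 704 and 1317 bp. The globin genes themselves had no region inside by the criteria used, since no region in them was clear of the 1 kb windows at gene ends.

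Megakaryocyte and platelet genes had 20 lost of 102 regions (19.6%), in 10 of 15 genes, and the median share per gene was 11.1%. Without Rab27b, the gene with the most, the list had 14 lost of 92 (15.2%), near the share over all genes. Rab27b, a GTPase of platelet granule release, lost 6 of 10, with peaks at 8, 8 and 9 regions in wild type and 1, 2 and 0 in knockout. Myh9 (non-muscle myosin) lost 3 of 15, Mrvi1 3 of 14 with 2 gained, and Vwf (von Willebrand factor) 2 of 7. Tubb1, the platelet tubulin, lost its only region inside, at 559, 619 and 626 bp. Itga2b, Selp, Clec1b, Nbeal2 and Pdgfb had regions inside and none lost.

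Erythropoietin receptor signalling genes did not stand out, with 7 lost of 59 regions (11.9%) and 6 gained. Bcl2l1, the survival gene BCL-XL, lost 2 of 17 and gained 3, and Stat5b lost 2 of 12. Stem and progenitor genes had 20 lost of 194 (10.3%) and 9 gained, with 3 lost of 16 at Mllt3, 3 of 25 at Msi2, 2 of 2 at Slamf1 and 2 of 6 at Prdm16. Without wild-type sample 1 the stem and progenitor share was 17.7%, against 17.8% over all genes. Losses were few in the lists of ETS factors and of granulocyte, monocyte and lymphoid genes. ETS family genes had 5 lost of 182 (2.75%), 2 of them among 41 regions of Etv6 and 1 each at Erg (also in the stem cell list), Fli1 (also in the platelet list) and Ehf, while 86 of the 182 were found in all 6 samples. Granulocyte and monocyte genes had 1 lost of 40 (2.5%), at Csf3r, B lymphoid genes 4 of 77 (5.19%) with 10 gained, and T and NK genes 0 of 18. Mast cell and basophil genes, with 3 of 28 (10.7%), were nearer the share over all genes.

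The shares of small lists moved with single samples. Without wild-type sample 1 the ETS share was 7.82%, without wild-type sample 3 it was 6.78%, and without knockout samples 1 or 2 it was 4.4% or 5.5%. Without wild-type samples 1, 2 or 3 the granulocyte share was 4.88%, 7.32% or 10%, and without knockout sample 2 it was 10.3%. Without wild-type sample 3 the B lymphoid share was 8% and that of T and NK genes 11.1%, and without wild-type sample 1 the T and NK share was 6.25%. Without knockout sample 2 the B lymphoid share was 8.97% and the mast cell share 17.9%. Each list here was compared with all regions inside genes under 16 further settings. The GATA, membrane, haem, megakaryocyte, and autophagy and clearance lists lay above the share over all genes in 16 of 16. The ETS, granulocyte, B lymphoid and T and NK lists lay below that share in 16 of 16. Leaving out of each list the gene with the most lost regions was a setting chosen after the data were seen. It gave 22.1% for GATA, 27% for membrane and 40.4% for haem genes. For autophagy and clearance genes, without Foxo3, it gave 20 of 50 (40%), with 4 lost regions each in Nprl3 and Ube2o.

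**Figure D3:**
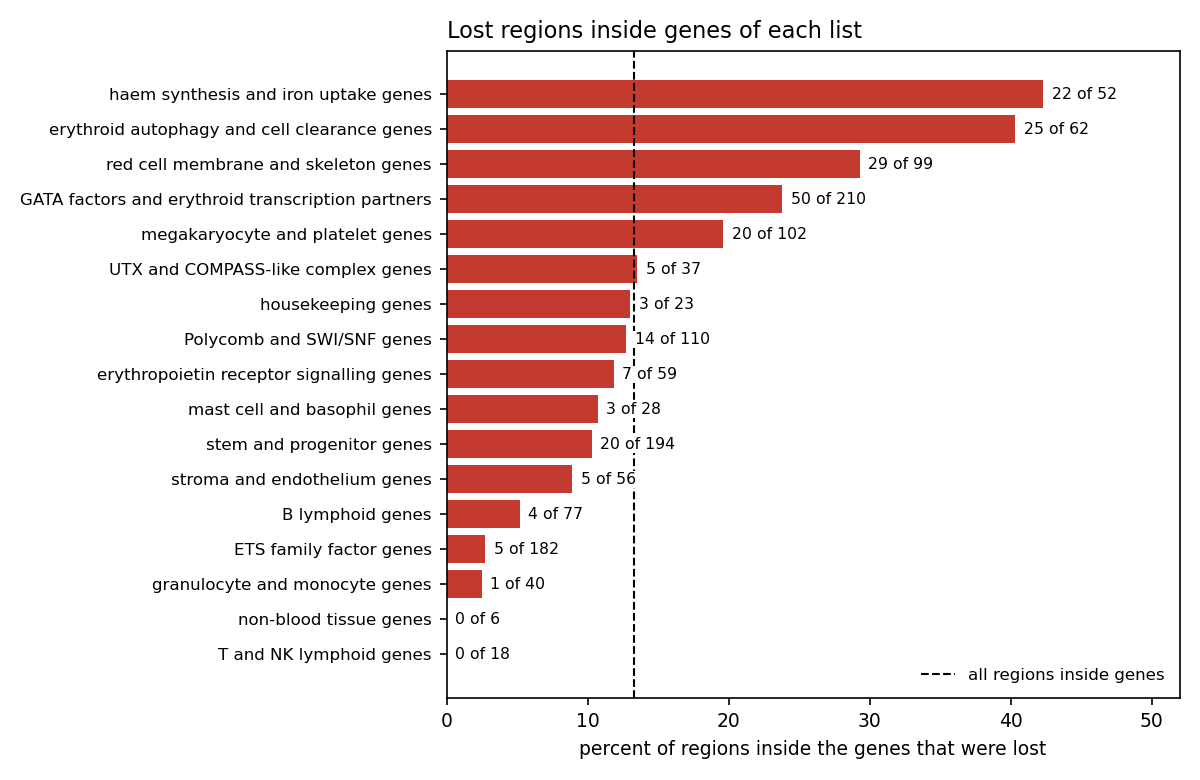
Percent of the regions inside the genes of each list that were lost (x axis), with lost and total regions printed beside each bar. The dashed line marks 13.3%, the share over all regions inside genes, and haem synthesis and iron uptake genes stand highest at 42.3%.

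Genes of chromatin complexes were near the share over all genes. UTX and COMPASS-like complex genes had 5 lost of 37 (13.5%), and without wild-type sample 1 the share was 22.2%. Crebbp, the histone acetyltransferase CBP, lost 2 of 6, Kmt2d and Dpy30 1 each, and Kmt2b its only region inside, at 1207, 1596 and 1717 bp (chromosome 7, 30571875 to 30573591). Polycomb and SWI/SNF genes had 14 lost of 110 (12.7%), with 4 of 7 at Arid2, 4 of 55 at Arid1b and 2 of 3 at Pbrm1. Ezh2, the H3K27 methyltransferase, lost its only region inside, at 521, 668 and 897 bp. Housekeeping genes had 3 lost of 23 (13%), 1 of them in Tfrc, which also stands in the haem and iron list. Stroma and endothelium genes had 5 of 56 (8.93%), or 18.9% without wild-type sample 3 and 14.3% without knockout sample 2. Genes of tissues other than blood had 0 of 6, or 20% without knockout sample 2.

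Most host genes held 1 lost region, and a few long genes held many. Of the 2867 host genes 1866 held 1 lost region, 574 held 2, 427 held 3 or more and 105 held 5 or more. Host genes were long, with a median of 64.4 kb against 32.2 kb for genes with a region inside and none lost, and had a median of 4 regions inside against 2. Genes with 5 or more lost regions had a median length of 162.5 kb. St6galnac3, a sialyltransferase of gangliosides, and Nfia, a factor that favours red cell over granulocyte fate, held 10 lost regions each, of 30 and 40 inside. In St6galnac3 peaks stood at 20, 23 and 25 regions in wild type and 6, 9 and 6 in knockout, and in Nfia at 34, 32 and 34 against 17, 25 and 18. Each count includes the 10 lost regions, so the lower knockout counts follow in part from how regions were chosen. Knockout sample 2, the longest knockout list, was the highest of its group in both. Mical3, an actin oxidase, held 9 of 24, Gse1, a partner of the LSD1 corepressor, 9 of 65, and the phosphodiesterase gene Pde4d 9 of 65 with 5 gained. Gse1 and Pde4d are long, and 26 and 29 of their regions were found in all 6 samples. Each had 13.85% of its regions lost, near the 13.3% over all regions inside genes, while the share was 25% in Nfia and 33.3% in St6galnac3.

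In some other genes most regions shared by the 3 wild-type samples were lost. Mgll, the monoacylglycerol lipase, lost 8 of its 10 regions found in all 3 wild-type samples, with peaks at 11, 10 and 12 regions in wild type and 2 in each knockout sample. Of such shared regions Snd1, a coactivator with nuclease-like domains, lost 8 of 9 (8 of all 20 inside), and Hectd4, of the HECT ubiquitin ligase family, 7 of 8 (7 of all 14). Dapk2, a death-associated kinase, lost 6 of 7, as Rgs12, a regulator of G protein signalling, lost 6 of 7. Ell2, a factor of transcription elongation, lost 6 of 6, with peaks at 6, 6 and 9 regions in wild type and 0 in each knockout sample. Garem1, an adaptor of growth factor receptors, also lost 6 of 6, with 6, 7 and 7 regions against 0. These 2 genes were without a single called region inside in the knockout lists. Of the 427 genes with 3 or more lost regions, 51 had lost every region that all 3 wild-type samples shared. Of all 2867 host genes, 967 had. Cyth3, an ARF exchange factor, lost 7 of 10 shared regions, and Dpf3, a SWI/SNF subunit, Rab27b and the transporter gene Slc22a23 lost 6 of 8 each. Arhgap23, Vps13d, Zfhx3, Extl3 and Itsn1 held 7 or 8 lost regions among 13 to 29 found in all 3 wild-type samples.

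**Figure D4:**
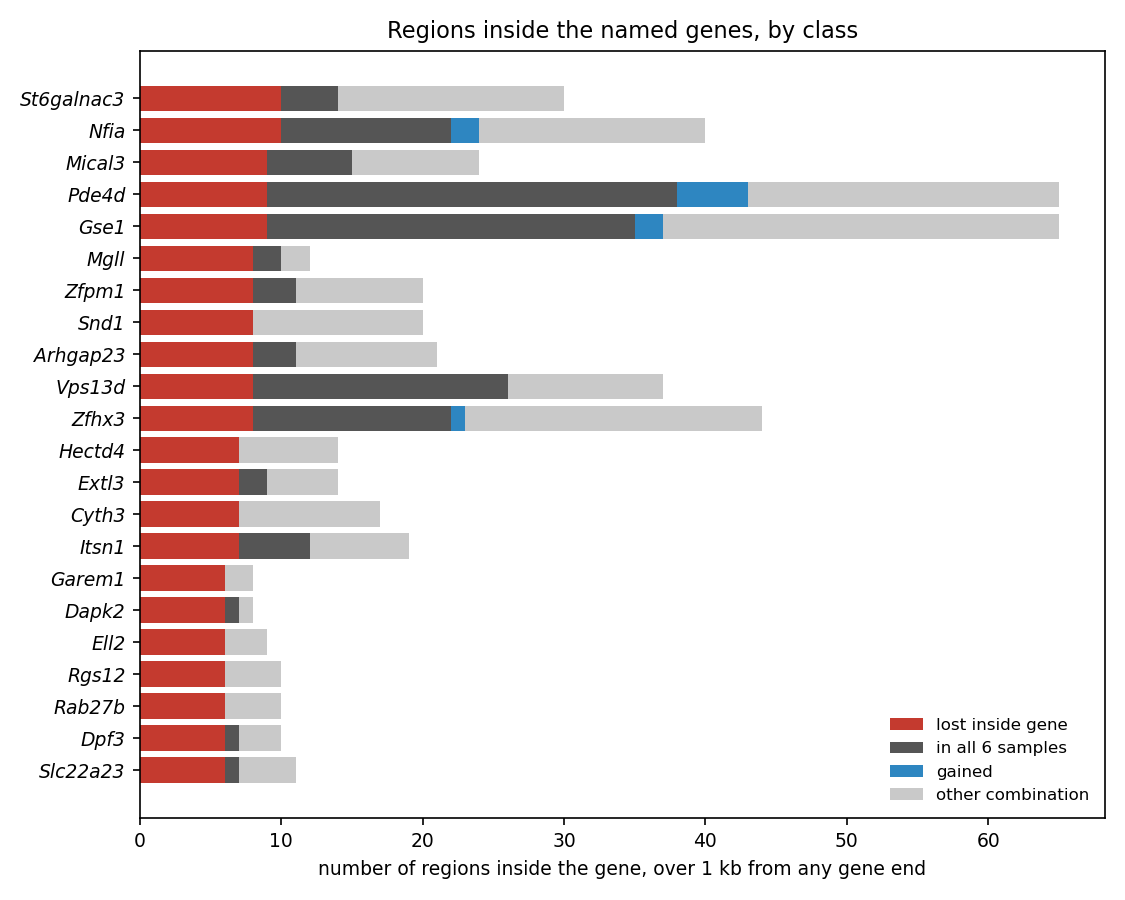
Number of regions inside each named gene (x axis), split into lost, found in all 6 samples, gained and other combinations. St6galnac3 and Nfia have 10 lost regions each, and Ell2 and Garem1 have none found in all 6 samples.

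After the Zfpm1 region, the widest lost region lay in Gpr146 and 3110082I17Rik, which overlap on chromosome 5 (139388440 to 139391197), with 1743, 2060 and 2583 bp. Gpr146 encodes an orphan G protein-coupled receptor. Sppl2b, a membrane protease, followed at 1625, 2116 and 2090 bp, and a region of Rgs6 measured 1923, 1717 and 1809 bp. Scube2, Ctse, Phyhip, Cacna1c, Celsr1, Mbp and Fam126a also held regions among the widest 12, with mean widths from 1652 to 1796 bp. Widths differed between samples mainly at Zfpm1 and at Ctse, a protease gene, where wild-type sample 3 had 2685 bp against 1311 and 1315 bp.

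A lost region was more often the nearest neighbour of a lost region than of a region found in all 6 samples. Among the 4180 lost regions with another region in the same gene, the nearest such region was also lost for 24.6%, found in all 6 samples for 24.9% and gained for 1.79%. For the 10192 regions found in all 6 samples these shares were 10.4%, 36.8% and 4.57%. For the 1588 gained regions the nearest was lost for 4.85% and gained for 19.8%. The class of neighbours comes from the same 6 lists, so these shares are descriptions. Allowing gaps of up to 10 kb with no other region between, 1105 lost regions (23.8%) fell into 499 runs, of which 81 held 3 or more. The longest after Zfpm1 were 5 each in Tspan33, a tetraspanin of red cells (chromosome 6, 29696972 to 29712430), the phosphatase gene Ssh1 (chromosome 5, 113973010 to 113990160) and the overlapping Htt and Msantd1 (chromosome 5, 34907877 to 34925040). In Extl3 4 lost regions lay within 3.37 kb.

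**Figure D5:**
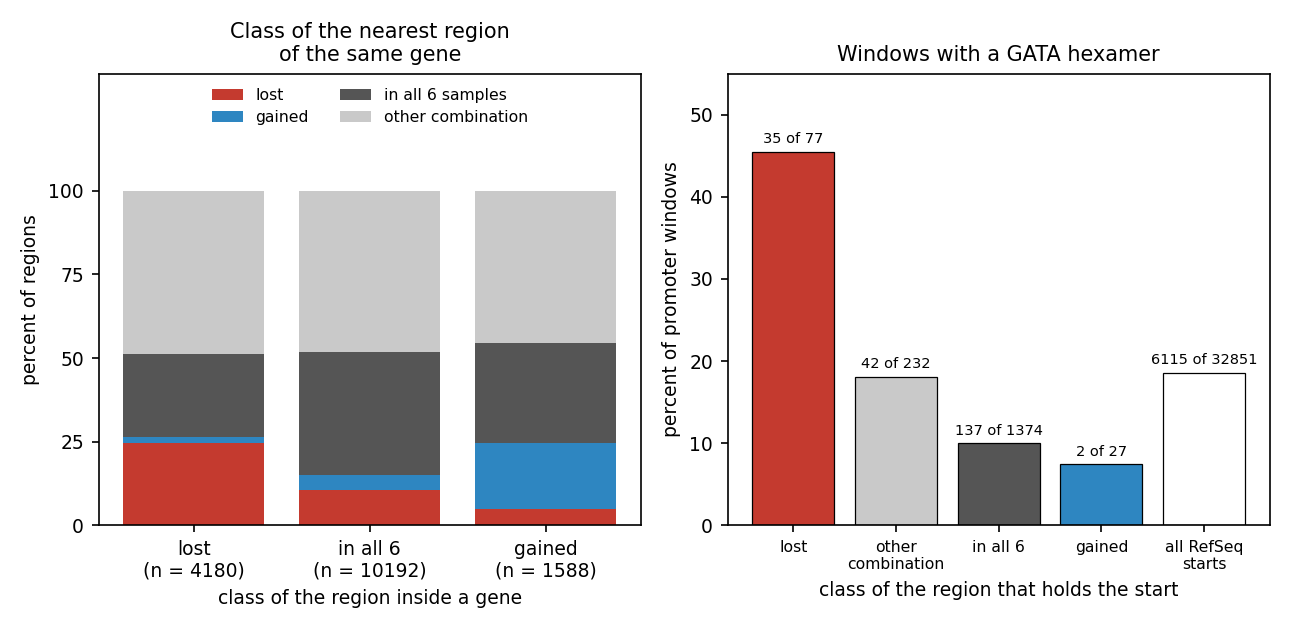
Left, class of the nearest region of the same gene (percent of regions, y axis) for lost regions, regions of all 6 samples and gained regions inside genes. Right, percent of 300-base windows at RefSeq starts with AGATAA or TGATAA, by the class of the region that holds the start, with counts above the bars. Lost regions have a lost neighbour in 24.6% and the hexamer in 45.5%.

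Most lost regions lay far from gene ends, as did most regions of all 6 samples and most gained regions inside genes. The median distance of lost regions to the nearest gene end was 16.5 kb, against 15.4 kb for regions of all 6 samples and 22.6 kb for gained ones. More than 10 kb from any gene end lay 63.4%, against 61.5% and 71.5%. For 3643 lost regions with 1 host gene of known strand, the median position was 45.6% of the way from start to end, against 42.5% and 48.2%. Within 5 kb of the start lay 11.0% of them, against 14.6% of regions of all 6 samples. Their share of the regions inside genes ran from 9.19% on chromosome X to 15.3% on chromosome 11.

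At the ends of host genes peaks were mostly shared. A region at a gene end found in all 6 samples existed for 2096 of 2867 host genes (73.1%) and for 65.7% of genes with a region inside and none lost. A lost region at a gene end existed for 5.09% and 3.01%. Regions inside host genes that all 6 samples had were narrower in knockout than in wild type for 68.2%, with a median log2 ratio of -0.14. In genes with none lost, 63.2% were narrower and the median log2 ratio was -0.10. Their median widths in host genes were 507, 495 and 489 bp in wild-type samples 1 to 3 and 449, 480 and 434 bp in knockout samples 1 to 3, without overlap. In genes with none lost they were 485, 472 and 463 bp against 442, 474 and 433 bp, and knockout sample 2 lay within the wild-type range.

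Among 1005 RefSeq microRNA hairpins, 2 lay at least partly in lost regions inside genes, 14 in regions found in all 6 samples and 25 in any region inside genes. Mir101b lies in Rcl1 and its region (chromosome 19, 29135210 to 29135759) was 441, 513 and 506 bp wide in wild type. The miR-101 family targets transcripts of Ezh2, and its mature 3p strand is shown for that reason, with the seed (bases 2 to 8) in capitals.
mmu-miR-101b-3p: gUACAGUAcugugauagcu
The other hairpin, Mir5617 in Syn1 on chromosome X, overlapped the edge of a region of 515, 758 and 398 bp.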

How the data were processed

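ATAC-seq peak lists of 3 wild-type and 3 Utx-knockout samples were used, 1 list per sample with chromosome, start and end. MACS2 and mm10 are named, without a version, per the submitters' processing notes, and the deposited lists carry a p-value threshold of 1e-11 in their labels. Aligner, read filters, insertion shift and duplicate handling were not stated in the labels. The lists hold no counts or scores, so depth is unknown. Peaks were merged at 1 shared bp, and 1 overlapping peak sufficed for a sample to have the region. Width is the number of bases its peaks cover there. Each list had 36 to 46 peaks on unplaced contigs, which lie in no gene. Genes were the 21887 protein-coding genes of RefSeq GRCm38.p6, without exons, so exon or intron is not given, and reported coordinates are 1-based mm10.

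The regions and the 18 gene lists (391 entries) were chosen with earlier results of these data known, and every value is a description without a test. Named genes were the 15 with the most lost regions, the hosts of the 12 widest, up to 4 per list with the most, up to 10 with at least 4 regions shared by wild type of which at least 75% were lost, and the longest 5 runs. Other genes were named after their values were seen, and some genes are not reported here. Ahsp and Tpsab1 are not in the annotation used. Planned motif counts over all lost regions could not be made without a genome sequence. RefSeq start windows took their place, and the 7 printed were chosen after their letters were seen. The labels do not say that samples are separate animals. The merge was tested on 20000 simulated regions, and 1000 of 1000 planted losses were called. Python 3.11.15, pandas 2.3.3 and numpy 2.4.6 were used. Alternatives were leaving out each sample, other overlap criteria, other gene end windows, limits on peak number and width, and autosomes alone.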

Additional observations from a re-analysis of the deposited data

How the results depend on the processing

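The number of lost regions inside genes was 4638, their share of all regions inside genes 13.3% and their share of those found in all 3 wild-type samples 23.6%. Leaving out each sample in turn gave 4840 to 5998 regions, 14.0% to 17.8% and 24.6% to 28.6%, and removing a sample by construction makes the criteria easier to meet. With the widest 50% of peaks the values were 2294, 14.6% and 29.0%, and with every list limited to 44576 peaks 2752, 9.55% and 19.5%. Regions of at least 400 bp gave 2886, 16.2% and 19.7%. When peaks in 2 of 3 wild-type samples sufficed they were 7614, 21.8% and 31.0%. Allowing 1 knockout sample gave shares of 18% and 32%, and asking peaks to cover 50% of the region gave 14.2% and 27.6%. With windows of 500 bp around peak centres, gene end windows of 500 bp or 2.5 kb, or autosomes alone, the count was within 1.5 times of 4638 and both shares within their 95% Wilson intervals. These intervals count regions as independent, which they are not, and do not measure the spread between samples. They served only as a fixed limit for calling a share unchanged. The count thus moved with list length and width, and the cause of the shorter knockout lists was not tested. No paired analysis was possible because no result here comes from a test. The planned motif windows of 3 lengths were not run, for want of a genome sequence.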
